A study of Homo sapiens with 12 samples.

Results

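NOMO-1 cells carrying the control hairpin labelled shNS were sequenced at the start and at the end of a 12 h course of actinomycin D, a drug that blocks transcription, so that mRNAs are no longer replaced and are seen only as they disappear. NOMO-1 is an established human cell line derived from acute myeloid leukaemia, with features of monocytes. The comparison used 4 of the 12 libraries of the series, 2 at 0 h and 2 at 12 h, and all 9529 genes of the deposited table. The other libraries were 2 of shNS cells at 8 h and 6 of cells with hairpins against ALKBH5, 1 library of each of 2 lines at 0, 8 and 12 h. These lines are called D and E here, as in the table's own column names. They entered the spread of the tests, 1 test of the difference between knockdown and shNS cells, and values set side by side.

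All groups shared lentiviral transduction, puromycin selection, exposure to actinomycin D (0 h being its start) and capture of polyadenylated RNA. The titles name ALKBH5 hairpins while the treatment protocol in the labels names lentivirus against FTO, and the titles were followed. The sources used here do not give the dose of actinomycin D. No sample was kept for 12 h without the drug, so the drug and the time in culture cannot be told apart. The labels do not say whether replicates were separate cultures. The spread behind each p-value is that between libraries and may be technical. The model took lines D and E, which carry different hairpins, as 2 replicates of a knockdown group, and 3 of its 6 residual degrees of freedom come from them.

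For each gene, percent left is its signal at 12 h over its signal at 0 h in the same replicate number, times 100. The number sets which 0 h library is the denominator, although nothing in the labels says that it pairs libraries. The tests do not use it. A second scale gives each gene against the median gene: libraries were rescaled by the median of ratios, and a gene was called above or below when its change differed from that of the median gene in limma at a Benjamini-Hochberg adjusted p under 0.05. Log2 values below are on this second scale unless stated, for log2(signal + 1), which understates the change of low genes.

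An mRNA is usually degraded by shortening of its poly(A) tail, carried out largely by the CCR4-NOT and PAN2-PAN3 complexes, then removal of the cap and digestion from the ends. Sequences in the 3′ untranslated region (3′ UTR) are bound by proteins that recruit this machinery. Pumilio proteins bind a UGUA-containing element, and the ZFP36 family binds AU-rich elements. Messages for transcription factors, cell-cycle regulators and signalling proteins are known for rapid turnover, and those for metabolic enzymes and ribosomal proteins for long lives.

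The sequences shown first are windows of 30 bases from the 3′ UTRs of genes at the 2 ends of the range described below, read from GENCODE release 29 transcripts on GRCh38, 5′ to 3′ on the strand of the transcript. Capitals mark a match to the Pumilio-type element, searched as TGTANATA on the sense strand only. The first 4 belong to genes that kept little at 12 h, and the last 3 to genes that kept much although they hold the same letters. These genes were chosen because they hold a match, so the windows do not show how common it is at either end.
BRIX1, chr5:34925541-34925570, plus strand: tgtattcaatgTGTAAATActtttattatc
CDKN1B, chr12:12721269-12721298, plus strand: tgtactacctgTGTATATAgtttttacctt
USP1, chr1:62450990-62451019, plus strand: tattttccttgTGTATATAttaaacacacc
CNOT8, chr5:154875628-154875657, plus strand: tgctctgaattTGTAAATAagtcttcccca
TNFRSF14, chr1:2563794-2563823, plus strand: ctgtgggaggaTGTAAATAtcttgtttctc
RAB13, chr1:153981775-153981804, minus strand: gcaaacataaaTGTAAATAcactgatttat
JUN, chr1:58781541-58781570, minus strand: ttaactgtgtaTGTACATAtatatattttt

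A second pair of windows holds the AU-rich nonamer TTATTTATT (capitals, sense strand) in 2 paralogous genes of mRNA decay that lay far apart at 12 h.
ZFP36L2, chr2:43223447-43223476, minus strand: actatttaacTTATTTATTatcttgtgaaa
ZFP36, chr19:39409196-39409225, plus strand: tatgacgactTTATTTATTctaatatgatt

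The deposited values are a normalised signal per gene, none of them 0. They are not counts, so read depth cannot be known and counting intervals cannot be set. The summed gene signal was 937164 and 826000 at 0 h and 193639 and 167376 at 12 h in replicates 1 and 2. In the 4 libraries the 46 ERCC spike-in transcripts had medians of 30.4 to 33.1. Scaling to the spike-ins is apparent, although no label records it. A fall is therefore a fall per unit of spike-in, in which fewer cells, less RNA per cell and faster decay cannot be told apart. Each library also had a lowest value above 0, 1.91 and 1.71 at 0 h and 0.407 and 0.363 at 12 h. Few genes lay close above it at 0 h, where the edge was gradual, and more did at 12 h. Genes under a limit may have been left out, which no label records. A gene with a low 0 h signal can thus show only a limited fall, and mRNAs lost below that limit are not analysed here. Of 16 myeloid markers 10 were in the table, against 1 of 10 lymphoid, 1 of 6 megakaryocyte, 0 of 10 erythroid and 0 of 6 epithelial markers.

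Nearly every gene was lower at 12 h than at 0 h. On the deposited scale 9484 genes (99.5%) were called lower and 1 (0.0105%) higher. The median gene kept 11.9% of its 0 h signal in replicate 1 and 12.9% in replicate 2. The middle 50% of genes kept between 7.46% and 19.0% in replicate 1 and between 8.24% and 19.4% in replicate 2, and the 5th and 95th percentiles were 4.00% and 33.6%, and 4.55% and 31.8%. The replicates gave almost the same order, with a Spearman correlation of 0.970 across the 9529 genes, which are not independent and share each library's scaling. The median absolute difference between replicates was 0.13 log2 units per gene, after the percents of each replicate were divided by their own median.

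**Figure D1:**
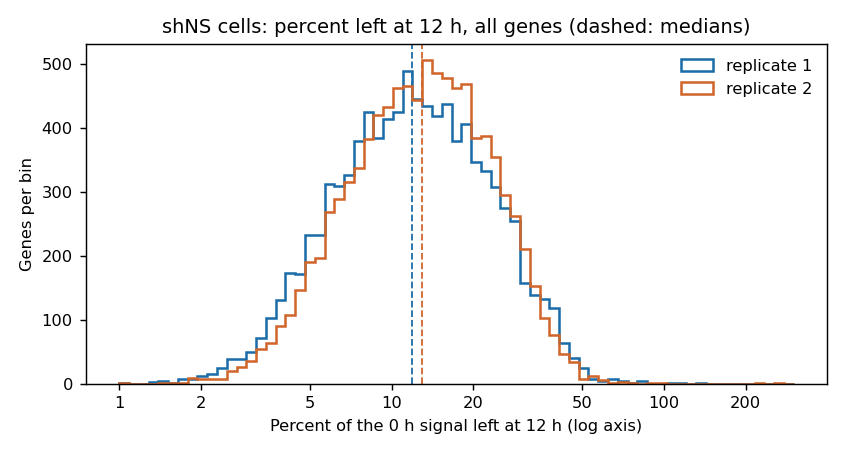
Number of genes (y axis) by percent of the 0 h signal left at 12 h (x axis, log scale) in shNS replicates 1 and 2. Dashed lines mark the medians, 11.9% and 12.9%, and nearly all genes lie well under 100%.

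The fall was not that of a single exponential. At 8 h the median gene still had 42.2% and 41.1%, and from 8 to 12 h it kept 29.99% and 32.9% of what was left at 8 h. A constant rate from 0 to 8 h would give the median gene a half-life of 6.43 and 6.24 h, and one from 0 to 12 h a half-life of 3.91 and 4.06 h. Rows for ribosomal RNA, which is not polyadenylated and is known to be long-lived, fell to about the same level. RNA18S5 went from 55899 and 35578 to 6700 and 4544, which is 12.0% and 12.8%, and RNA28S5 kept 11.9% and 12.9%. The row of the precursor transcript, RNA45S5, kept 31.3% and 33.2%. The part of the common fall that is mRNA decay was not tested, and for that reason the classes below are set against the median gene.

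Against the median gene, 2341 genes (24.6%) were called above and 2573 (27.0%) below. With 1 of the 4 libraries left out, fewer were called: 1481 above without replicate 1 at 0 h, 1490 without replicate 1 at 12 h, and up to 1628 otherwise, and between 1767 and 1891 below. On simulated data of 9529 genes the procedure found 32% of changes of 1 log2 unit and 75% of changes of 2. Only a small part of those genes was changed, against the large part called here, so these shares may not hold for this comparison. A gene without a call may still differ. With the 6 shNS libraries only, more were called, 4016 above (42.1%) and 3966 below (41.6%). Of the 156 genes given values or a call in the text 141 were called, and 22 of these lost the call without at least 1 of the 4 libraries. In 15 it was lost whichever library was left out: AZU1, BHLHE40, BMI1, CCT5, CD52, CNOT8, CTSB, DDB2, DNAJA1, GADD45B, INSIG1, JUNB, NDUFS3, POLR2L and TUG1. Of the 15 not called, 8 were called with the 6 shNS libraries only: ALDOC, CD74, FTH1, HDAC5, RPL7A and RPS27L above, and ALKBH5 and SERPINB1 below. The summed signal without ribosomal RNA rows kept 21.8% and 20.9%, more than the median gene. By 0 h signal, the top eighth of genes (a mean of 99.95 or higher) had medians of 19.5% and 19.1%, and the fourth eighth (19.3 to 26.9) of 9.57% and 10.6%. In the lowest eighth (1.86 to 8.12) the medians were 16.6% and 16.5%, where the lowest percent the table could show was typically 7.09% and 6.87%. Leaving out ribosomal protein genes, the top eighth still had 18.6% and 18.3%. Which reference is used matters for the split: scaled to the summed gene signal, the median of all genes shifts by -0.64 log2 units and 587 genes are above and 5108 below. Genes called above by a small margin then lie below, among them BMI1, DDB2, IER2, IER5, LSM1, NFKBIB and PSMB3 of those named here.

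**Figure D2:**
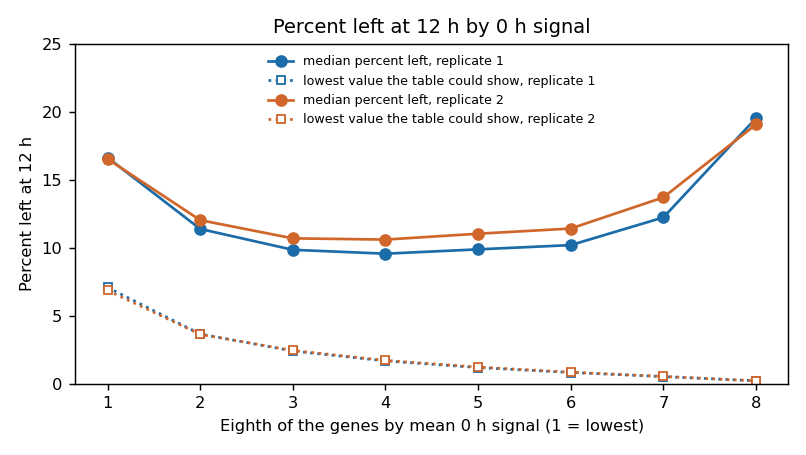
Median percent left at 12 h (y axis) in each eighth of the 9529 genes ordered by mean 0 h signal (x axis), with the lowest percent that the table's smallest 12 h value allows (dotted). The medians are 16.6% and 16.5% in the lowest eighth, near 10% in the middle and above 19% in the top eighth.

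Small structured RNAs were among the genes that kept most. RPPH1, the RNA of ribonuclease P, was the 1 gene called higher on the deposited scale, a call lost without replicate 2 at 0 h. It was low, with 6.22 and 3.85 at 0 h against 8.84 and 10.2 at 12 h. SNORD3A, the U3 small nucleolar RNA (chr17:19188016-19188714, plus strand), had 33.2 and 32.8 at 0 h and 35.4 and 29.1 at 12 h. SCARNA17, a guide RNA of Cajal bodies, had 17.2 and 18.5, then 18.1 and 18.2. In both the 0 h and 12 h values were close together, and both stood above the median gene (log2 2.88, SE 0.33, adjusted p = 0.000219, and 2.86, SE 0.23, adjusted p = 8.25e-05). RN7SK, the scaffold that holds the elongation factor P-TEFb inactive, kept 85.3% and 73.5%, and SCARNA9L 117% and 67.8%. These RNAs lack a long poly(A) tail, so their level in poly(A) libraries may vary with the capture, which was not tested. The signal recognition particle RNAs show such variation at 0 h already: RN7SL1 had 1982 in replicate 1 and 94.4 in replicate 2. SNORD3A read 196% and 143% at 8 h, and RN7SK 425% and 291% in the knockdown lines at 12 h.

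Protein-coding genes completed the 10 farthest above the median gene among those with a 0 h signal of at least 10. NUPR1, a stress-induced chromatin protein, had 51.9 and 42.5 at 0 h and 34.2 and 26.2 at 12 h, which is 65.9% and 61.7%. DPP7, a lysosomal dipeptidyl peptidase, had 114 and 99.1, then 65.0 and 59.3 (57.0% and 59.9%). MIF, a macrophage cytokine, went from 424 and 378 to 231 and 206, or 54.5% and 54.4% (log2 2.13, SE 0.13, adjusted p = 4.81e-05). In each of the 3 the 12 h libraries lay below both 0 h libraries, so these messages also declined, but by less than most. TNFRSF14, the HVEM receptor of the TNF receptor family, kept 55.0% and 59.5%, and CD52, a small GPI-anchored leukocyte protein, 62.0% and 56.5%. TPSAB1, a mast cell and basophil tryptase, kept 58.4% and 55.3%, and reads shared with near-identical tryptase copies make its value uncertain.

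The 10 genes farthest below the median gene were MYC, DDIT4, XBP1, CITED2, BYSL, BRIX1, NIFK, NOA1, KCNE3 and PSMG2. MYC, the growth-promoting transcription factor, had 183 and 184 at 0 h and 1.94 and 1.99 at 12 h, or 1.06% and 1.08%. Its distance from the median gene was the largest among the genes of the rule (log2 -3.32, SE 0.21, adjusted p = 4.81e-05). DDIT4, an inhibitor of mTORC1, went from 295 and 266 to 3.89 and 3.76, and XBP1, a transcription factor of the unfolded protein response, from 166 and 148 to 2.36 and 2.68. CITED2, a regulator of CBP/p300, kept 1.69% and 1.92%. The 0 h and 12 h libraries of these 4 genes lay far apart with small differences between replicates.

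Of the 10 lowest, BYSL, BRIX1 and NIFK act in the nucleolus. BYSL, needed for assembly of the small ribosomal subunit, had 185 in both 0 h libraries and 3.77 and 3.62 at 12 h. BRIX1, a factor of the large subunit, had 60.1 and 48.0, then 0.880 and 0.986, or 1.47% and 2.05%. NIFK, which binds the Ki-67 protein, kept 1.85% and 2.02%. The others were NOA1, a mitochondrial GTPase (1.37% and 1.83%), KCNE3, a potassium channel subunit (1.43% and 1.93%), and PSMG2, a chaperone of proteasome assembly (1.75% and 2.27%). NOA1, KCNE3 and BRIX1 ended under 1 signal unit, within a few times the lowest value of the table, where their true fall could be larger than shown.

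**Figure D3:**
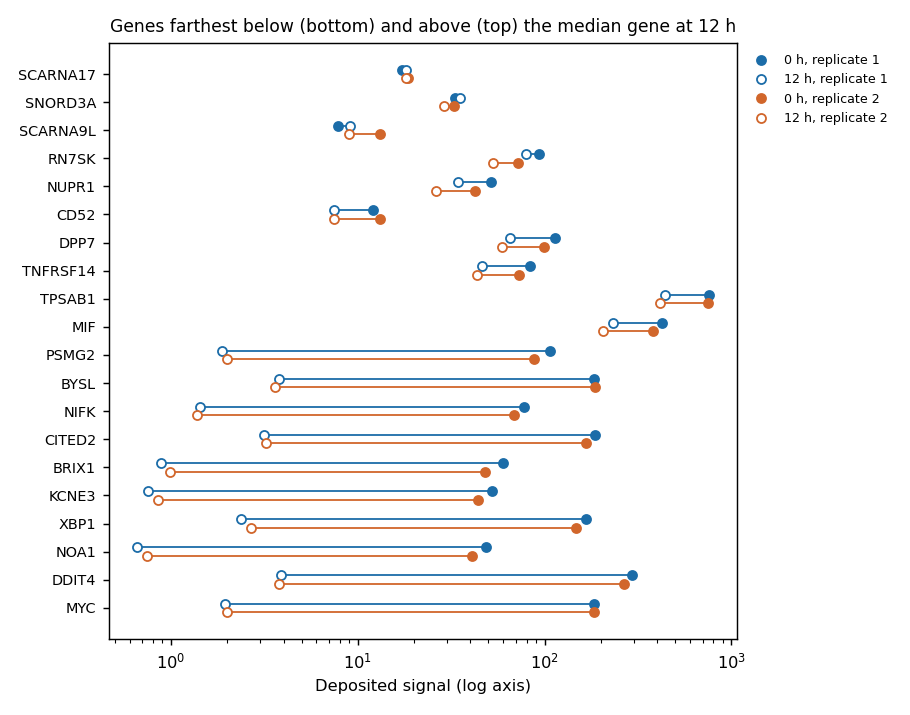
Deposited signal (x axis, log scale) at 0 h (filled) and 12 h (open) in replicates 1 and 2 for the 10 genes farthest above and the 10 farthest below the median gene. The lines are short at the top, where values stay close, and span about 2 orders of magnitude at the bottom, as for MYC from 183 to 1.94.

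Of 35 gene classes with at least 5 genes in the table, 15 had a median above that of the median gene and 20 below. Their order was close in the 2 replicates, with a Spearman correlation of class medians of 0.989. The class medians ran from 6.26% and 6.72% in nucleolar ribosome biogenesis factors to 37.1% and 33.7% in core glycolytic enzymes. The highest and lowest members named below are those by the mean percent of both replicates. These are descriptions of listed genes, with calls to be read against 24.6% above and 27.0% below among all genes. Classes share some members, among them BBC3, BAX and MYC.

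**Figure D4:**
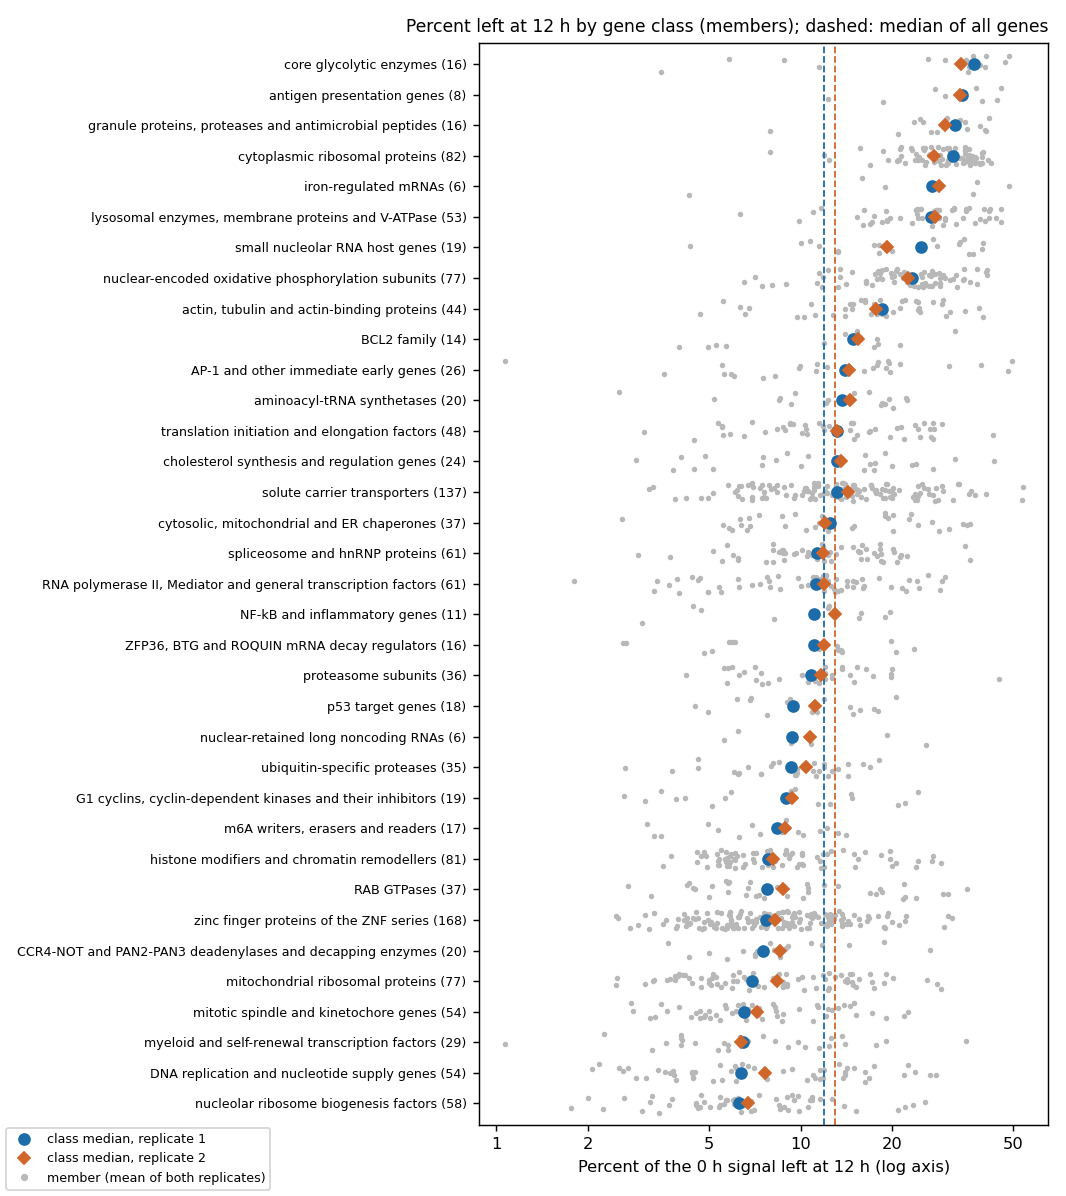
Percent left at 12 h (x axis, log scale) for each of the 35 classes, with the number of genes in the table. Grey points are genes (mean of both replicates), coloured symbols are class medians per replicate, and dashed lines are the medians of all genes, 11.9% and 12.9%. Glycolytic enzymes, antigen presentation and granule genes lie at the top and nucleolar factors at the bottom.

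Core glycolytic enzymes kept the most. Of 16 genes 11 were called above and 2 below. GAPDH had 4211 and 4253 at 0 h and 1665 and 1452 at 12 h, which is 39.5% and 34.1%, and PKM, pyruvate kinase, kept 40.2% and 36.5%. The highest mean percent was that of ALDOC, an aldolase, at 51.7% and 45.0%, although it was not called with all 12 libraries (log2 1.93, SE 0.75, adjusted p = 0.0559). With the 6 shNS libraries only, its SE was 0.07 (adjusted p = 2.19e-08 in limma). The 2 called below were LDHA and HK1, and 4 of the 16 genes lay under the median gene in both replicates. LDHA, which converts pyruvate to lactate, had 620 and 586 at 0 h and 20.2 and 21.6 at 12 h, or 3.27% and 3.69% (log2 -1.81, SE 0.16, adjusted p = 9.40e-05), and LDHB, its sister subunit, kept 27.4% and 25.1%. HK1, the first enzyme, kept 5.60% and 6.06% and was called below as well.

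The 82 cytoplasmic ribosomal protein genes were the most uniform large class. Medians were 31.6% and 27.5%, with 77 called above and 1 below. RPLP2, a protein of the ribosomal stalk, had 1615 and 1476 at 0 h and 705 and 602 at 12 h, or 43.7% and 40.8%. The 1 gene below was RPL39L, a paralog of RPL39 with a narrower tissue distribution, which kept 8.54% and 7.33%. The others not called were paralogs too, except RPL7A: RPL26L1, RPL36AL and RPS27L kept between 10.4% and 16.6%. As a share of the summed signal without ribosomal RNA rows, the class grew from 23.2% and 23.9% at 0 h to 33.8% and 32.2% at 12 h.

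Mitochondrial genes split by function. Nuclear-encoded subunits of oxidative phosphorylation had medians of 23.2% and 22.6%, with 50 of 77 called above and 3 below. ATP5E, a subunit of ATP synthase, kept 39.6% and 42.1%, and COX4I1, of cytochrome oxidase, 40.9% and 35.0%. The 3 below were NDUFS4 and NDUFS3 of complex I and UQCRFS1 of complex III, at 6.14% to 7.73%. The 77 mitochondrial ribosomal protein genes lay on the other side, with medians of 6.92% and 8.35%, 6 called above and 39 below. MRPS30 went from 76.8 and 58.8 to 1.59 and 1.70, or 2.06% and 2.90%, while MRPL23 kept 28.7% and 29.1%. The cytoplasmic and the mitochondrial ribosomes had messages at the 2 ends of the range, 77 of 82 above against 39 of 77 below.

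Messages of the secretory and lysosomal compartments kept much of their signal. In the lysosomal class 35 of 53 were called above and 1 below, with medians of 26.8% and 27.7%. CTSD, the aspartic protease cathepsin D, had 4753 and 4773 at 0 h and 1964 and 1854 at 12 h, or 41.3% and 38.9%, and CTSB, cathepsin B, kept 48.5% and 42.3%. The gene below was ATP6V0A2, a subunit of the proton pump, at 6.30% and 6.32%. Of 16 genes for granule proteins of myeloid cells 13 were called above and 0 below, with medians of 32.2% and 29.8%. ELANE, neutrophil elastase, went from 686 and 701 to 247 and 216 (35.9% and 30.8%), and AZU1, azurocidin, kept 42.8% and 38.4%. CST7, an inhibitor of their processing proteases, kept 43.3% and 40.0%. SERPINB1, an inhibitor of elastase, had 7.56% and 8.30% and was not called.

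Antigen presentation genes had medians of 34.0% and 33.5%, with 5 of 8 called above and 0 below. B2M, the light chain of class I molecules, had 3328 and 2957 at 0 h and 872 and 856 at 12 h. CD74, the invariant chain of class II, kept 47.7% and 43.1% without being called with all 12 libraries (log2 1.86, SE 0.93, adjusted p = 0.125). With the 6 shNS libraries only, the SE was 0.07 and CD74 was above (adjusted p = 2.34e-08 in limma). CIITA, the activator of class II transcription, stood at the median gene with 12.0% and 12.6%. Among 6 iron-regulated messages 4 were above and 1 below. FTL, ferritin light chain, had 7493 and 7262 at 0 h and 2846 and 2743 at 12 h (38.0% and 37.8%). TFRC, the transferrin receptor, whose message is known to be stabilised by iron regulatory proteins, kept 35.5% and 38.3%. IREB2, which encodes such a regulatory protein, kept 3.84% and 4.76% and was the 1 below. FTH1, ferritin heavy chain, had the highest percent, 50.6% and 46.4%, with an SE of 0.78 and an adjusted p of 0.0602 in limma. With the 6 shNS libraries only, the SE was 0.08 (adjusted p = 2.55e-08). In lines D and E FTH1 kept 72.8% and 33.4%.

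These 6 classes and oxidative phosphorylation stayed above when libraries were scaled to the summed gene signal. Small nucleolar RNA host genes, with 10 of 19 called above and 1 below, had medians of 24.8% and 19.2% and fell to 0.97 times that reference. GAS5, whose exons are flanked by small nucleolar RNAs and whose message encodes no known protein, went from 687 and 595 to 281 and 225 (40.9% and 37.9%). SNHG1 kept 40.6% and 38.8%, and SNHG3 4.61% and 4.08%, the 1 called below. Cytoskeletal genes had medians of 18.6% and 17.7%, with 15 of 44 above and 3 below, and lay at 0.88 times that reference. TMSB10, an actin-binding thymosin, kept 44.7% and 34.7%, and TUBA4A, an alpha tubulin, 4.24% and 5.11%.

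At the low end, nucleolar ribosome biogenesis factors had 39 of 58 genes called below and 4 above. Beside BRIX1 and BYSL, POLR1B, a large subunit of RNA polymerase I, kept 1.95% and 2.54%. The 4 above were FBL, NHP2, NOP10 and SRM. FBL, the methyltransferase of box C/D particles, kept 22.5% and 19.4%. NHP2 and NOP10, members of box H/ACA particles, kept 20.04% and 23.9%, and 27.0% and 24.3%. SRM kept 25.4% and 21.3%. It encodes spermidine synthase, which is on the list but is not itself a nucleolar factor. The proteins of the mature ribosome and the factors that build it were on opposite sides of the median gene in this table.

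Cell-cycle messages were also low. Replication and nucleotide supply genes had medians of 6.39% and 7.62%, with 27 of 54 below and 5 above. FEN1, the flap endonuclease of Okazaki fragments, went from 47.6 and 44.5 to 0.970 and 1.02, and CDT1, a licensing factor, kept 2.40% and 2.68%. ORC5, of the origin recognition complex, ended at 0.410 and 0.410, close to the lowest 12 h values of the table, so its 1.92% and 2.20% may be upper limits. TK1 and TYMS, enzymes of thymidylate supply, and the ribonucleotide reductase gene RRM2 were above, TK1 with 27.7% and 28.0%. Mitotic genes had medians of 6.51% and 7.19%, with 33 of 54 below and 2 above. PLK1, the polo-like kinase, had 100.3 and 96.7 at 0 h and 2.64 and 2.79 at 12 h, whereas KIF4A, a chromosome kinesin (21.3% and 23.9%), and BIRC5, survivin (20.04% and 23.6%), were above.

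Of G1 cyclins, cyclin-dependent kinases and inhibitors 8 of 19 were below and 3 above. CDKN1B, the inhibitor p27, had 158 and 118 at 0 h and 3.52 and 3.60 at 12 h, or 2.22% and 3.04%. CDK4, which drives G1 progression, had 175 and 167, then 43.5 and 39.5, or 24.9% and 23.7%. CDK6, its close relative, kept 3.24% and 3.74% and was called below, so the 2 kinases of the same step were on opposite sides. CCNL1 and CCNL2, which are on the list but are cyclins of transcription and splicing kinases and not of G1, were the other 2 above.

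Transcription and chromatin regulators formed the next low group. Myeloid and self-renewal transcription factors had medians of 6.48% and 6.39%, with 18 of 29 below and 1 above. GFI1, a transcriptional repressor, went from 217 and 198 to 4.92 and 4.46 (2.27% and 2.25%). CEBPA, the granulocytic activator, had 212 and 194, then 7.56 and 7.12 (3.57% and 3.67%), and MYB kept 4.40% and 4.63%. The 1 above was BMI1, a Polycomb subunit, with 171 and 168 at 0 h and 30.01 and 29.9 at 12 h, but it lies below with the summed-signal reference (log2 -0.21). Its call was lost without each of the 4 libraries in turn (adjusted p between 0.0683 and 0.16 in limma).

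Histone modifiers and chromatin remodellers had 48 of 81 below and 8 above. ARID1A, the BAF complex subunit, kept 3.57% and 3.51%, and KMT2D, a histone H3 lysine methyltransferase, 4.45% and 4.65%. The deacetylases HDAC1 (28.8% and 25.1%) and HDAC3 (26.2% and 28.3%) were above, and HDAC2 (5.01% and 5.65%) was below. HDAC5, another deacetylase, had the highest mean percent, 29.7% and 28.0%, without a call with all 12 libraries. Zinc finger genes of the ZNF series, mostly DNA-binding repressors, had 74 of 168 below and 10 above, with medians of 7.72% and 8.26%. Their lowest by the mean was ZNF282 (2.69% and 2.25%). Genes of RNA polymerase II, Mediator and the general factors were near the median gene as a class (11.2% and 11.9%), with 10 of 61 above and 19 below. Within it POLR2E, POLR2G and POLR2L, subunits of the polymerase, kept between 27.0% and 32.0%, while GTF2B, the initiation factor TFIIB, kept 1.52% and 2.08% and ended at 0.408 and 0.469, next to the lowest value of the table.

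Genes of mRNA decay were low in part. CCR4-NOT and PAN2-PAN3 deadenylases and decapping enzymes had 12 of 20 below and 2 above, with medians of 7.50% and 8.58%. CNOT8, a catalytic deadenylase, went from 71.3 and 57.7 to 2.60 and 2.12 (3.65% and 3.67%), and DDX6, a helicase that links deadenylation to decapping, kept 3.80% and 4.82%. PAN2, the other deadenylase, had 34.3 and 30.3, then 9.08 and 8.11 (26.5% and 26.8%), and with LSM1 was above. Regulators of mRNA decay, among them the ZFP36, BTG and Pumilio genes, had medians of 11.0% and 11.9%, near the median gene. Of these, 7 of 16 were below and 1 above. ZFP36L2 had 294 and 258 at 0 h and 7.58 and 6.78 at 12 h (2.58% and 2.62%), and PUM2, a Pumilio protein, 97.6 and 84.3, then 2.39 and 2.44 (2.45% and 2.90%). ZFP36 had 19.8 in both 0 h libraries and 4.95 and 4.39 at 12 h (25.1% and 22.2%), and was the 1 above, although it lies at -0.079 under a scaling to genes with a signal of at least 20. It and ZFP36L2 both hold the nonamer shown above, and their percents differed about as widely as those of any pair in the class.

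Genes of the m6A pathway had 11 of 17 below and 0 above. YTHDF2, a reader that directs methylated mRNA to decay, went from 67.3 and 57.7 to 2.13 and 1.98 (3.17% and 3.43%), and KIAA1429, a subunit of the writer complex, kept 2.87% and 3.38%. METTL3, its catalytic subunit, had 13.4% and 13.1%, and the demethylase ALKBH5 9.74% and 10.6%, neither called. Ubiquitin-specific proteases had 12 of 35 below and 1 above, with USP1, which acts on the Fanconi protein FANCD2, at 2.18% and 3.12%. RAB GTPases were spread widely, 15 of 37 below and 9 above. RAB20 went from 144 and 132 to 3.70 and 3.76 (2.57% and 2.86%), and RAB13 from 104 and 98.5 to 40.7 and 31.0 (39.0% and 31.5%).

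The remaining classes were near the median gene but wide inside. Immediate early genes, induced within minutes of a stimulus and known for very rapid decay, had medians of 14.0% and 14.4%, with 6 of 26 above and 6 below. JUN, a subunit of AP-1, had 22.3 and 22.8 at 0 h and 11.1 and 10.6 at 12 h (49.8% and 46.2%), and read 147% and 123% at 8 h. ATF3, at 38.8% and 39.3%, read 197% and 153% at 8 h from a 0 h signal of at most 2.00. Of the 49 listed genes of this class 26 were in the table. KLF6, JUNB, IER2 and IER5 were the others above (JUNB with no call in any fit without 1 library, adjusted p between 0.0713 and 0.125 in limma), and MYC, PIM3, KLF10, ID2, GADD45B and BHLHE40 those below.

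NF-kB and inflammatory genes, with 11 of 31 listed genes in the table, had 3 below and 1 above. RELA and REL, which form NF-kB itself, kept 3.89% and 4.94%, and 4.06% and 5.35%, and TNFAIP8 was the lowest with 2.26% and 3.75%. NFKBIB, an inhibitor of NF-kB, was above (19.4% and 19.9%). In the BCL2 family 4 of 14 were above and 4 below. The 4 below were BCL2A1, which protects from apoptosis, and BCL2L11, BBC3 and BMF, which promote it, all between 3.56% and 6.25%. BAD, which also promotes it, was highest with 28.7% and 35.4%, but its mean 0 h signal was under 10, below the cutoff of the naming rule. Of 18 p53 targets 4 were below and 1 above, XPC, a DNA repair factor, being lowest (4.18% and 4.83%) and DDB2, another, above (17.8% and 16.9%). Without each of the 4 libraries in turn DDB2 was not called (adjusted p between 0.107 and 0.176 in limma).

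Of 24 cholesterol genes 6 were below and 6 above. SQLE, the squalene epoxidase, went from 202 and 151 to 5.19 and 4.82 (2.57% and 3.18%). INSIG1, which holds back the pathway's activation, was also below (3.78% and 4.34%). Among those above was DHCR7, which makes cholesterol in the last step, with 112 and 95.7 at 0 h and 37.3 and 29.5 at 12 h (33.4% and 30.8%). Of 37 chaperone genes 11 were above and 10 below. P4HB (37.2% and 33.2%), PDIA6 and HSPA5, which work in the endoplasmic reticulum, were above, and CCT2, CCT5, DNAJA1 and DNAJA2 of the cytosol below, DNAJA2 with 2.52% and 2.66%. HSPB1, a small heat shock protein of the cytosol, kept 38.8% and 33.1%.

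Translation factors had medians of 13.2% and 13.2%, with 15 of 48 above and 12 below. EIF1, which selects the start codon, had 695 and 675 at 0 h and 309 and 279 at 12 h (44.4% and 41.3%), whereas EIF4E, the cap-binding protein, had 27.8 and 22.5, then 0.759 and 0.755 (2.73% and 3.36%). Among 20 aminoacyl-tRNA synthetases 6 were above and 4 below, with FARSA, a subunit of the phenylalanine enzyme, lowest (2.50% and 2.54%). Proteasome subunits had 4 of 36 above and 12 below. PSMA7, a subunit of the core particle, stood apart with 337 and 336 at 0 h and 157 and 145 at 12 h (46.7% and 43.2%), the next being PSMB3 with 21.6% and 18.3%. Spliceosome and hnRNP genes had 11 of 61 above and 13 below, from PRPF4 (2.73% and 3.12%) to SNRPD2 (40.0% and 31.9%). Solute carriers had 39 of 137 above and 24 below, from SLC26A2 (2.65% and 3.69%) to SLC26A11 (50.03% and 57.2%), 2 members of the same anion transporter family. The mean 0 h signal of SLC26A11 was under 10, below the cutoff of the naming rule. Of 6 listed long noncoding RNAs 1 was above and 2 below. MALAT1, a resident of nuclear speckles, kept 25.7% and 25.8% and was above. NORAD, which binds Pumilio proteins, kept 4.96% and 6.19% and was below, as was TUG1.

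Features of the transcripts went with percent left. For 8953 protein-coding genes a GENCODE transcript was found, 8933 of them with a 3′ UTR. Genes were split into 5 bins of similar size for each feature. By 3′ UTR length the median fell from 16.0% and 16.2% in the shortest (up to 330 bases) to 9.02% and 10.2% in the longest (2771 bases or more). By length of the coding sequence it fell from 16.1% and 17.2% to 9.83% and 10.7%. By GC content at the third codon position it rose from 8.18% and 9.85% in the lowest bin to 16.2% and 16.3% in the highest, and by GC content of the 3′ UTR from 9.01% and 10.6% to 17.5% and 17.6%. With the number of exons it changed little, from 11.9% and 12.8% in genes of up to 5 exons to 11.0% and 11.8% in those of 18 or more. These features vary together, and genes are not replicates, so no test was made.

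Genes with the Pumilio-type element TGTANATA in the 3′ UTR kept less. The letters were found in 2376 of the 8933 3′ UTRs (26.6%). The median was 8.54% and 9.62% with a match and 13.2% and 14.1% without. With a match 10.2% of genes were called above and 42.6% below, and without a match 28.7% and 22.8%. With 1, 2 and 3 or more matches the medians in replicate 1 were 8.97%, 7.96% and 7.47%, and in replicate 2 9.94%, 9.05% and 8.58%. Long and AU-rich 3′ UTRs hold more matches, so the values were also taken within bins of each.

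The median with a match was lower than without in all 5 bins of 3′ UTR length and in all 5 bins of 3′ UTR GC content, in both replicates. In the shortest 3′ UTRs, where 118 genes held a match, it was 8.39% and 9.10% against 16.6% and 16.9%. In the longest the values were 8.30% and 9.48% against 10.3% and 11.2%. In the bin of lowest GC content they were 7.66% and 9.18% against 10.2% and 11.7%. Each split leaves the other feature unmatched. In the shortest 3′ UTRs the median GC content was 36.9% with a match and 46.0% without, and in the bin of lowest GC content the median length was 1798 bases with a match and 498 without. In lines D and E the medians over all genes were 8.12% and 8.26% with a match and 11.8% and 11.5% without. BRIX1, CDKN1B, USP1 and CNOT8, whose windows are printed above, hold 1, 2, 2 and 4 matches. Of the 10 genes farthest below the median gene, DDIT4, XBP1, CITED2, BYSL, NOA1, KCNE3, PSMG2 and NIFK hold none. Of the 10 farthest above, NUPR1, DPP7, TPSAB1, MIF and CD52 hold none either. TNFRSF14 and RAB13 hold 1 each and JUN 3, and these genes stayed above the median gene in shNS cells. JUN had a wide spread there (log2 1.84, SE 0.49) and kept 48.9% and 24.5% in lines D and E. A match is a description of these letters and not a mapped binding site.

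**Figure D5:**
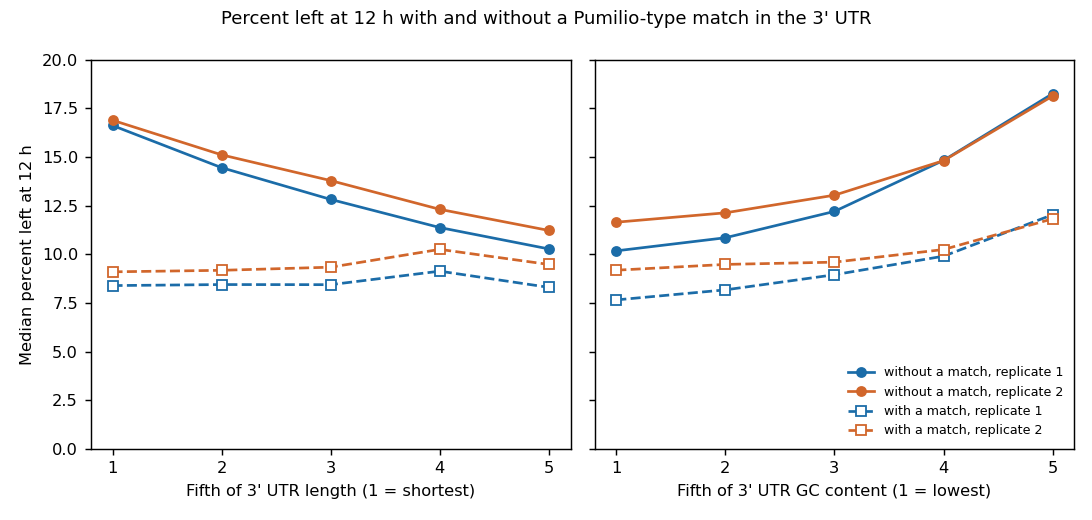
Median percent left at 12 h (y axis) in 5 bins of 3′ UTR length (left) and of 3′ UTR GC content (right) for genes with and without a TGTANATA match, per replicate. In the shortest 3′ UTRs genes with a match stand at 8.39% and 9.10% and those without at 16.6% and 16.9%, and the curves draw together in the longest.

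The AU-rich nonamer TTATTTATT was rarer, in 709 3′ UTRs (7.94%), with medians of 9.07% and 9.90% against 11.9% and 12.9% without it. The median with the nonamer was lower in all 5 bins of length and all 5 of GC content, in both shNS replicates. By length the difference was largest in the shortest 3′ UTRs, where 21 genes held it (10.05% and 10.3% against 16.1% and 16.3%), and small in the second bin (13.7% and 14.0% against 13.8% and 14.6%) and the longest (8.83% and 9.58% against 9.19% and 10.3%). In the third bin it was 10.1% and 11.1% against 12.0% and 13.0%, and in the fourth 8.76% and 9.75% against 10.9% and 11.8%. The shorter core ATTTA, which every nonamer contains, was in 6134 (68.7%). Medians went from 16.6% and 16.6% with none to 9.27% and 10.5% with 3 or more, along with 3′ UTR lengths whose medians were 347 and 2503 bases. Genes with ATTTA were also lower in all 5 bins of length and all 5 of GC content, in both replicates. In the shortest 3′ UTRs they had 10.8% and 11.4% against 18.1% and 17.8% without it. In shNS cells the pattern within bins was thus shared by the Pumilio-type element, the nonamer and ATTTA.

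The knockdown lines, whose libraries the comparison did not use beyond the shared spread, kept 10.9% (line D) and 10.7% (line E) of the median gene at 12 h. The order of the 35 class medians in shNS cells had a Spearman correlation of 0.879 with that in line D and 0.940 with that in line E. Core glycolytic enzymes, first in shNS cells, had 20.8% and 20.9% in lines D and E, and nucleolar factors 6.40% and 6.85%. Ribosomal protein genes had 28.8% in line D and 18.2% in line E. In limma 0 genes were called for a difference in the 12 h change between knockdown and shNS cells on the scale of the median gene, with 793 of 9529 at an unadjusted p under 0.05. Lines D and E served as replicates in that test, so differences between the lines enter its spread. The lack of calls therefore does not show that knockdown and shNS cells were alike. MYC kept 1.62% in both lines, DDIT4 1.69% and 1.39%, and CITED2 1.27% and 1.43%. MIF kept 38.3% and 30.5%, and DPP7 73.0% and 50.3%.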

How the data were processed

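The authors deposited one table of a normalised signal per gene symbol for 12 libraries; STAR and RSEM, and the build GRCh38, appear in the submitters' processing notes, and the sources used here give no versions, settings or scaling steps. Libraries were matched to samples by column name. The 46 ERCC rows were left out and no gene was removed by a minimum mean of 1. Tests were run with limma 3.58.1 (R 4.3.3) on log2(signal + 1), fitting 6 group means over 12 libraries (6 residual degrees of freedom), a mean-variance trend and empirical Bayes, on the deposited scale and after median-of-ratios scaling. The procedure was tested on simulated data. Tables were joined in Python 3.11.15 with pandas 2.3.3. Of the symbols, 9144 matched GENCODE release 29, 230 matched by another name in RefSeq and 155 did not.

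Genes were named by a rule: with a 0 h mean of at least 10, the 10 called genes farthest above and the 10 farthest below whose groups do not overlap, and the highest and lowest member of each class, of which the text gives a part. Other members named as examples, and the Pumilio-type element, were chosen after their values were seen. The members and gene lists were chosen with earlier results of these data known. Alternatives were a pseudocount of 0.1, a mean of at least 5, no filter, limma without trend, 6 or 4 shNS libraries only, a replicate block, each of the 4 libraries left out, ERCC rescaling and 2 other references. A 0 h mean of at least 20 was added after seeing the data. Some genes of these lists are counted in their class but not reported here by name.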

Additional observations from a re-analysis of the deposited data

How the results depend on the processing

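The calls depended most on the reference and on the number of libraries. Scaled to the summed gene signal, 587 genes were above and 5108 below, and scaled to the median ratio of genes with a signal of at least 20 in every shNS group (median shift -0.88), 244 and 6236. Of the 4914 calls, 3160 and 2817 were kept in the same direction and 16 and 294 turned. The share of calls that were above went from 47.6% to 10.3% and 3.77%, and the classes above from 15 to 7 and 6. With 6 shNS libraries only, 4016 were above and 3966 below, with 4 only 3942 and 3917, and both kept all 4914. With a 0 h mean of at least 20, 1556 were above, 5799 were lower on the deposited scale and 0 higher, while 6 or 4 shNS libraries gave 2 higher. ERCC rescaling gave a median percent left of 14.1%, against 12.4% from the means of both replicates. The setting with no filter removed no gene and is void.

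Leaving out 1 library gave 1481 to 1628 genes above and 1767 to 1891 below, 0 to 2 higher and 9429 to 9453 lower on the deposited scale, and a median of 11.6% to 13.3%. There a group of 1 takes its spread from the rest. The 22 named genes that lost a call there had adjusted p between 0.0505 and 0.19 (limma). Signs turned for CIITA (-0.10 to 0.087), METTL3 (-0.0040 to 0.20), RN7SL1 (-2.96 to 1.22), RNA18S5 (-0.24 to 0.24), RNA28S5 (-0.36 to 0.38), RPL26L1 (-0.17 to 0.052) and RPL36AL (-0.064 to 0.061), none of them called. Class levels against the median gene crossed 1 for NF-kB and inflammatory genes (0.924 to 1.01), cytosolic, mitochondrial and ER chaperones (0.949 to 1.02) and translation initiation and elongation factors (0.999 to 1.07). Across genes, the deviations of the replicate 1 libraries from their group means were compared between times, on the log2 scale of the median gene. These deviations, not the signals themselves, correlated at 0.26 (0 and 8 h), 0.05 (0 and 12 h) and 0.10 (8 and 12 h). The numbers were therefore not taken to pair libraries. With the replicate number as a block, 2098 genes were above and 2365 below, 9472 lower and 1 higher on the deposited scale, and 4457 of the 4914 calls were kept.

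On the summed-signal reference these named genes turned: BMI1 -0.21, DDB2 -0.23, IER2 -0.077, IER5 -0.067, LSM1 -0.13, METTL3 -0.60, NFKBIB -0.054, PSMB3 -0.039, RNA18S5 -0.73, RNA28S5 -0.72, RPL7A -0.28 and RPS27L -0.38. On the reference of genes of at least 20 they were BMI1 -0.50, DDB2 -0.50, IER2 -0.36, IER5 -0.33, LSM1 -0.40, METTL3 -0.87, NFKBIB -0.32, PSMB3 -0.33, RNA18S5 -1.02, RNA28S5 -1.01, RPL7A -0.57 and RPS27L -0.66. There also BIRC5 -0.19, CCNL1 -0.18, CCNL2 -0.26, CDK4 -0.045, FBL -0.26, JUNB -0.23, KIF4A -0.15, NHP2 -0.19, RRM2 -0.20, SRM -0.11, TYMS -0.16 and ZFP36 -0.079 turned. Another 25 and 27 called genes kept their direction and lost the call.

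Class levels crossed 1 on these references, in the same order: BCL2 family 0.75 and 0.61, cholesterol 0.65 and 0.53, cytoskeleton 0.88 and 0.72, immediate early 0.69 and 0.56, solute carriers 0.66 and 0.54, small nucleolar RNA hosts 0.97 and 0.80, translation factors 0.62 and 0.50, tRNA synthetases 0.69 and 0.56, and on the second only oxidative phosphorylation 0.91. Classes near the median gene also crossed it with other settings: chaperones 1.01 (mean of at least 5), 1.003 (0 h mean of at least 20) and 1.03 (mean of log2), cholesterol 0.86 (mean of at least 5) and 0.91 (mean of log2), immediate early 0.993 (0 h mean of at least 20) and 0.997 (mean of log2), and the BCL2 family 0.97 (mean of log2). Beyond the construction of each alternative, the cause was not tested. Depth is unknown, and low genes are limited by the lowest value of the table.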
